A study of Mus musculus with 6 samples.

Results

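The genes described are 9 mouse genes, chosen by name, that encode the IFIT proteins and the enzymes that attach ISG15 to proteins or remove it. Of the 57010 genes in the count table, 14799 passed the filter on low counts, and all 9 were among them. They are Ifit1, Ifit2, Ifit3 and Ifit3b, the modifier gene Isg15, the conjugating enzymes Uba7, Ube2l6 and Herc6, and the deconjugating enzyme Usp18. Their expression was measured by RNA-seq in primary neonatal mouse cardiomyocytes (NMCMs) under hypoxia (HO). The HO + Vehicle group held 3 libraries (V1, V2 and V3), and the HO + β-SITO group, treated with the plant sterol β-sitosterol, held another 3 (T4, T5 and T6). Both groups carry the hypoxia, and no normoxic library was used here, so each comparison is of β-SITO against vehicle within hypoxic cells. The NMCMs came from hearts of newborn C57BL/6 mice and were the cells left in suspension after fibroblasts had attached to the dish. The sources used here give neither the dose nor the duration of β-SITO in these cultures, nor whether the 3 libraries of a group came from separate cultures. The p-values therefore measure the spread between these libraries, which may be technical.

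IFIT proteins and ISG15 are products of genes that cells switch on in response to type I interferon. IFIT proteins bind viral or otherwise foreign RNA and hinder its translation. ISG15 is a small protein related to ubiquitin that is joined to other proteins by a chain of an activating enzyme (E1), a conjugating enzyme (E2) and a ligase (E3), and a protease takes it off again. In heart cells the same genes are known to respond to viral infection and to interferon.

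All 9 genes fell in the HO + β-SITO group. The log2 fold change, HO + β-SITO over HO + Vehicle, ran from -6.96 for Isg15 to -3.75 for Ube2l6, with a median of -6.51 (all 14799 tested genes, -0.01). A gene was called lower when its level was less than that of vehicle by over 2-fold and edgeR's quasi-likelihood test gave an adjusted p below 0.05, and 9 of 9 genes were called lower, against 10.1% of all tested genes. For all 9 the highest β-SITO library lay below the lowest vehicle library, which held for 35.8% of all tested genes. Together the 9 genes took 0.639, 0.740 and 0.708% of all counts in V1, V2 and V3, and 0.0155, 0.0129 and 0.0126% in T4, T5 and T6. Bulk RNA does not tell fewer cells that express a gene from less RNA of it per cell.

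**Figure D1:**
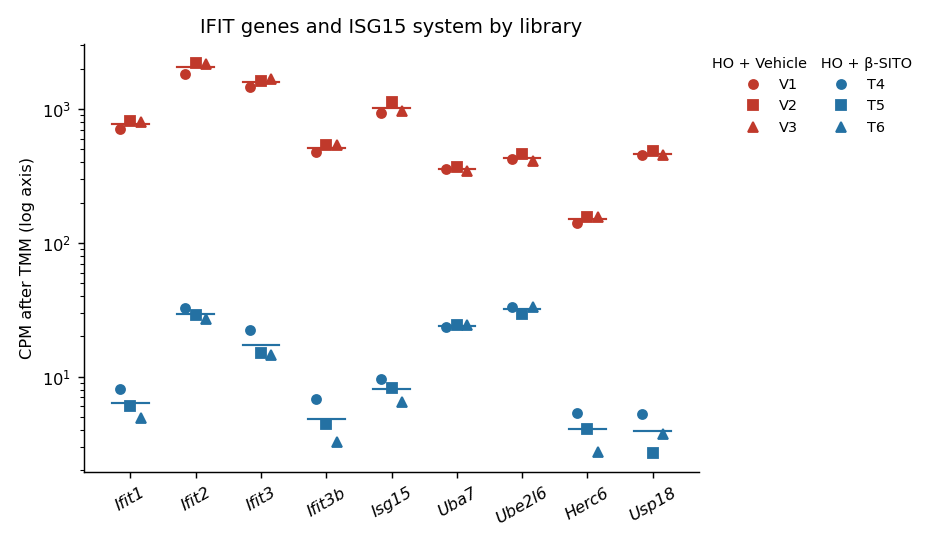
The CPM of each of the 9 genes in every library is plotted on a log axis, with HO + Vehicle libraries (V1 to V3) and HO + β-SITO libraries (T4 to T6) as points and the group means as bars. In each gene all 3 vehicle points lie above all 3 β-SITO points, and the gap is narrowest for Ube2l6 (13.5-fold) and Uba7 (14.8-fold).

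Depth overlapped between the groups, at 16694734 to 17082129 counts per vehicle library and 16962152 to 18460522 counts per β-SITO library. Over the 9 genes, single libraries held 2229 to 34987 counts with vehicle and 48 to 643 with β-SITO, so the β-SITO values rest on fewer counts. The names of the β-SITO libraries in the count table carry a suffix that the vehicle names lack, and any difference in preparation that goes with it cannot be told apart from β-SITO. All 12 cardiomyocyte markers looked at were tested, and their summed CPM (counts scaled by TMM normalization to a common library size) was 5704 to 6609 with vehicle and 5297 to 8982 with β-SITO. All 9 fibroblast markers were tested as well, with summed CPM of 30022 to 31267 and 45022 to 46148, so the cultures also held RNA of other heart cells.

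The IFIT genes sit side by side on chromosome 19. Ifit2 (chr19:34528094-34553819), Ifit3 (chr19:34560931-34566131), Ifit3b (chr19:34585370-34590801) and Ifit1 (chr19:34618271-34627409) are all on the plus strand in the coordinates of the count table, whose build is named as GRCm39 in the submitters' processing notes. The stretch from Ifit2 to Ifit1 covers 99.3 kb and also holds the relatives Ifit1bl1 and Ifit1bl2 on the minus strand. Ifit1 encodes a protein that binds RNA whose cap lacks a methyl mark of the cell's own RNA. Ifit2 encodes an RNA-binding partner of it, and Ifit3 a protein whose human form holds IFIT complexes together. Ifit3b is a near copy of Ifit3.

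Ifit1 had 708.4, 818.4 and 795.1 CPM in V1, V2 and V3 and 8.12, 6.07 and 4.89 CPM in T4, T5 and T6. The means were 774 ± 58.0 and 6.36 ± 1.63 CPM (SD, n = 3 each), and the log2 fold change was -6.92 (SE 0.127, adjusted p = 5.37e-16), a level 121.3-fold lower. The 3 vehicle libraries lay within a narrow range, and the β-SITO library with the highest value, T4, was far below the lowest of them, V1.

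Ifit2 had the highest CPM of the 9 genes in every vehicle library, with 1812, 2184 and 2168 CPM in V1 to V3, and it had 32.8, 28.9 and 26.9 CPM in T4 to T6. Its log2 fold change was -6.12 (SE 0.103, adjusted p = 2.39e-16), the smallest fall among the 4 IFIT genes. The groups did not overlap, and V1 was again the lowest vehicle library and T4 the highest β-SITO library.

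Ifit3 had 1445, 1620 and 1668 CPM in V1 to V3 and 22.1, 15.1 and 14.6 CPM in T4 to T6, with a log2 fold change of -6.51 (SE 0.134, adjusted p = 1.63e-15). Its near copy Ifit3b had 474.9, 535.4 and 534.4 CPM in V1 to V3 and 6.78, 4.44 and 3.28 CPM in T4 to T6, with a log2 fold change of -6.73 (SE 0.147, adjusted p = 3.41e-15). In both genes the groups were far apart, with T4 above T5 and T6. Of the 150-base windows of Ifit3 transcripts, 18.5% also occur in Ifit3b, and 16.0% of those of Ifit3b occur in Ifit3, so some reads could have been split or lost between these genes. With both sets of counts summed as 1 gene, all 8 resulting genes were called lower.

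The 4 IFIT genes took different shares of the IFIT counts in the groups. Ifit2 made up 41.7% ± 0.802 of the counts of the 4 IFIT genes with vehicle and 51.4% ± 3.85 with β-SITO (SD, n = 3 each), and Ifit1 made up 15.7% ± 0.302 and 10.9% ± 0.919. For both shares the groups did not overlap, with an exact two-sided permutation p = 0.1, the smallest that 3 libraries against 3 allow (adjusted p = 0.144 over 13 quantities). The share of Ifit3 was 32.1% ± 0.591 and 29.6% ± 2.02, and here the groups overlapped (exact permutation p = 0.2, adjusted p = 0.26). Ifit3 took 75.4% ± 0.301 of the reads of Ifit3 and Ifit3b with vehicle and 78.5% ± 2.79 with β-SITO, with no overlap (exact permutation p = 0.1, adjusted p = 0.144). This share was 76.6, 77.2 and 81.7% in T4, T5 and T6, and without T6 the difference between the groups went from 3.10 to 1.51 percentage points.

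The 2 IFIT relatives in the same stretch were counted far less often and were called lower as well. Ifit1bl1 went from 41.1 ± 3.43 to 0.479 ± 0.0541 CPM (log2 fold change -6.40, adjusted p = 6.26e-15). Ifit1bl2 went from 5.57 ± 0.997 to 0.407 ± 0.0557 CPM (log2 fold change -3.75, adjusted p = 3.85e-09), but 1.24% of the 150-base windows of Ifit1 also occur in it, and it had 7 to 9 counts in the β-SITO libraries. The genes on either side of the stretch were not called. Lipa, a lysosomal acid lipase 23220 bases left of Ifit2, had a log2 fold change of 0.05 (SE 0.0618, adjusted p = 0.448). Slc16a12, a membrane transporter 18394 bases right of Ifit1, had -0.06 (SE 0.264, adjusted p = 0.848) on only 202 counts over all 6 libraries.

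**Figure D2:**
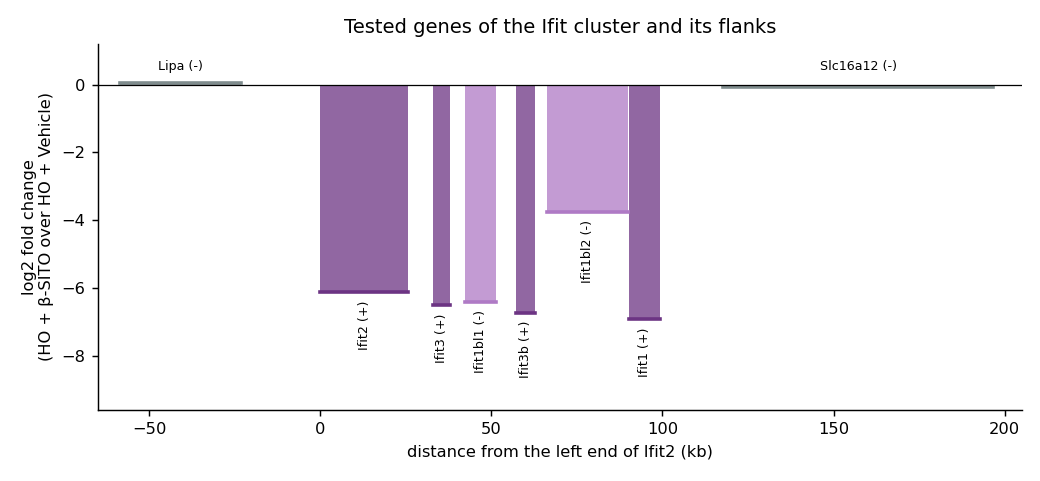
The log2 fold change (HO + β-SITO over HO + Vehicle) of each tested gene is drawn over its extent, against the distance in kb from the left end of Ifit2, with the strand in brackets. The 4 IFIT genes of the set are dark, their relatives Ifit1bl1 and Ifit1bl2 light, and the flanking Lipa and Slc16a12 lie near 0.

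Sequence upstream of these genes was read from RefSeq promoter windows of 250 bases before the start, on build GRCm38.p6, which held 8 of the 9 genes in 9 windows (Usp18 had no entry). The core of the interferon-stimulated response element (ISRE), the site read by the interferon-activated complex that holds STAT2 and IRF9, was searched as GAAANNGAAA on both strands, with overlapping matches kept. It occurred in 4 of the 8 genes, Ifit1, Ifit3, Ifit3b and Isg15, against 936 of 27025 genes (3.46%) and 978 of 32851 windows (2.98%) in the whole promoter table. Of the 17 other interferon-stimulated genes listed with a window, 6 held it. The stretch from 200 to 51 bases before the start is shown for the 4 genes, because it holds every core found in them, and the capitals mark the cores. In Ifit1, Ifit3 and Ifit3b the core lies on the strand opposite to the gene and is therefore read here as its reverse complement. The stretches are chr19:34640689-34640838 (plus strand) for Ifit1, chr19:34583329-34583478 (plus strand) for Ifit3, chr19:34607757-34607906 (plus strand) for Ifit3b and chr4:156200869-156201018 (minus strand) for Isg15.
Ifit1: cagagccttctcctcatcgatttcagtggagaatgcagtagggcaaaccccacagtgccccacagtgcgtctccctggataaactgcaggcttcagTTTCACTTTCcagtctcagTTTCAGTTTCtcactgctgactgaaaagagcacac
Ifit3: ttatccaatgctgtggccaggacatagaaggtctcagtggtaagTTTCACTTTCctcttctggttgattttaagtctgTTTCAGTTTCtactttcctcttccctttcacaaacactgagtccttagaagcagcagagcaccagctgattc
Ifit3b: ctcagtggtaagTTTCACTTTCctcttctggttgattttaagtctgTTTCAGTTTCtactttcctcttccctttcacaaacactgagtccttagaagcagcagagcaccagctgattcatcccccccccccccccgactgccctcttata
Isg15: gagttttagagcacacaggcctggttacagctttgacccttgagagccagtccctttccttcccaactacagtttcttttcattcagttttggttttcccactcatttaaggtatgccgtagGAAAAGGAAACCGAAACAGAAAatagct

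Ifit1 held 2 cores, which begin 104 and 85 bases before the start. Ifit3 held its 2 cores at 156 and 122 bases before the start, and Ifit3b at 188 and 154 bases. The stretches shown for Ifit3 and Ifit3b share an identical run of 118 bases that holds both cores, while the longest run that either shares with Ifit1 is 13 bases. Isg15 held 3 overlapping cores on the gene's own strand, beginning 78, 72 and 66 bases before the start. Ifit2, which also fell, had no such letters in either of its windows, and neither had Uba7, Ube2l6 or Herc6. The gamma-activated site (GAS), known from genes that respond to interferon gamma, was searched as TTCNNNGAA on both strands. It occurred in 1 of 8 genes, Ifit2, at 241 bases before the start, against 8.13% of all genes in the promoter table. The TATA box, searched as TATAAA on both strands, occurred in 0 of 8 genes, against 14.3% of all genes in the promoter table. A match in these letters is a description of the window and not a measured site.

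**Figure D3:**
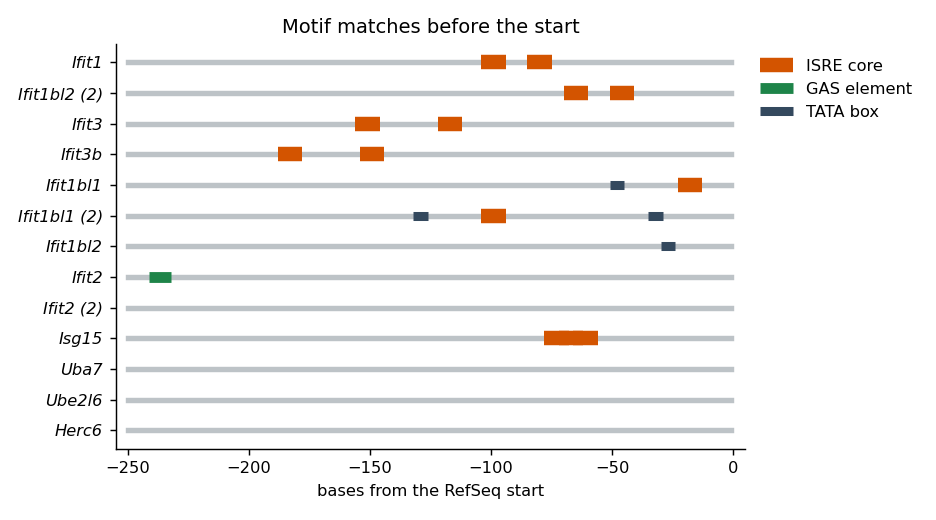
Matches to the ISRE core, the GAS element and the TATA box are drawn by their distance in bases before the RefSeq start, over 250 bases, for each promoter window of the 8 genes and of Ifit1bl1 and Ifit1bl2 (a number in brackets marks a further window of the same gene). Cores appear in Ifit1, Ifit3, Ifit3b and Isg15, in both windows of Ifit1bl1 and in a window of Ifit1bl2. The cores in that Ifit1bl2 window are the same bases as the cores of Ifit1, read on the other strand. The pair of Ifit3b lies 32 bases farther from the start than the pair of Ifit3.

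The modifier itself showed the largest fall of the 9. Isg15 (chr4:156283912-156285253, minus strand) had 939.0, 1121 and 967.6 CPM in V1, V2 and V3 and 9.56, 8.26 and 6.51 CPM in T4, T5 and T6. The fall came to a log2 fold change of -6.96 (SE 0.119, adjusted p = 2.82e-16), a level 124-fold lower, and the groups did not overlap. Isg15 is among the genes in the study's heat map of these libraries, so its direction is not independent evidence. The closest tested genes on either side were also called lower, Agrn, which encodes the matrix protein agrin, with a log2 fold change of -1.82 (adjusted p = 8.11e-12) and the long non-coding gene AW011738 with -1.70 (adjusted p = 1.85e-09). They lie 1967 and 2474 bases away.

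Uba7, the E1 enzyme that activates ISG15, had 356.9, 369.4 and 342.8 CPM in V1, V2 and V3 and 23.5, 24.3 and 24.4 CPM in T4, T5 and T6. Its log2 fold change was -3.89 (SE 0.0651, adjusted p = 2.27e-16). The 3 β-SITO libraries lay closer together than in any other gene of the set, with an SD of 0.516 CPM around a mean of 24.1. Uba7 (chr9:107852704-107861259, plus strand) overlaps the gene model Gm20661 on the same strand, which had 6 counts over all libraries.

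Ube2l6, the E2 enzyme, had 420.7, 458.3 and 410.7 CPM in V1, V2 and V3 and 33.0, 29.6 and 33.1 CPM in T4, T5 and T6. It had a log2 fold change of -3.75 (SE 0.0727, adjusted p = 8.73e-16), the smallest of the 9. For both Uba7 and Ube2l6 the lowest vehicle library was V3 and the highest β-SITO library T6, whereas V1 and T4 held those places in the other 7 genes. Ube2l6 lies at chr2:84629172-84640679 on the plus strand and overlaps an unnamed non-coding gene on the same strand, which had 3 counts over all libraries.

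Herc6, the E3 ligase that does most ISG15 attachment in mice, had 140.8, 155.4 and 155.3 CPM in V1, V2 and V3 and 5.34, 4.05 and 2.76 CPM in T4, T5 and T6. Its log2 fold change was -5.21 (SE 0.129, adjusted p = 1.44e-14), between those of the E1 and E2 enzymes and that of the modifier. No vehicle library came near a β-SITO library, and T4 was the highest of the β-SITO libraries. Herc6 lies at chr6:57557985-57641617 on the plus strand. Of the 150-base windows of its transcripts, 8.69% also occur in Gm45193, a non-coding gene that overlaps it on the same strand and had 0 counts. Reads that lie in both genes could have been lost.

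Usp18, the protease that removes ISG15 and also dampens signalling at the interferon receptor, had 450.6, 481.1 and 454.6 CPM in V1, V2 and V3 and 5.29, 2.70 and 3.75 CPM in T4, T5 and T6. Its log2 fold change was -6.87 (SE 0.129, adjusted p = 6.68e-16), a level 117.0-fold lower. The groups were far apart, while the β-SITO libraries, with 103, 48 and 72 counts, varied more among themselves (coefficient of variation 33.4%) than the vehicle libraries (3.59%). Usp18 lies at chr6:121222865-121247876 on the plus strand.

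Within the ISG15 system the fall ran from 13.5-fold for Ube2l6 to 124-fold for Isg15. Counts of each gene were divided by those of Isg15 in the same library, and the log2 ratios were compared. The ratio of Uba7 to Isg15 was 3.08 higher on the log2 scale with β-SITO, and that of Ube2l6 3.22 higher. The ratio of Herc6 to Isg15 was 1.71 higher, and those of Ifit2 and Ifit3 were 0.85 and 0.43 higher. In these 5 ratios the groups did not overlap (exact two-sided permutation p = 0.1 for each, adjusted p = 0.144 over 13 quantities). The ratio of Usp18 to Isg15 was -1.12 ± 0.0858 with vehicle and -1.08 ± 0.454 with β-SITO (SD, n = 3 each, exact permutation p = 1). For Ifit1 it was -0.38 ± 0.0883 and -0.36 ± 0.112 (exact permutation p = 0.7, adjusted p = 0.758), and for Ifit3b -0.97 ± 0.106 and -0.79 ± 0.260 (exact permutation p = 0.4, adjusted p = 0.473). The groups overlapped in these 3 ratios.

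**Figure D4:**
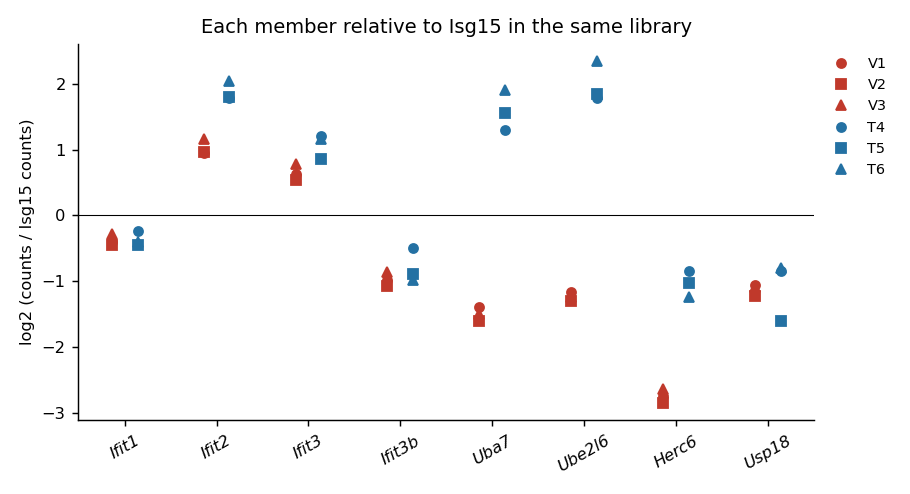
The log2 ratio of each gene's counts to the counts of Isg15 in the same library is plotted for HO + Vehicle (V1 to V3) and HO + β-SITO (T4 to T6). Uba7 and Ube2l6 lie below 0 in all vehicle libraries and above 0 in all β-SITO libraries, while the points of Ifit1, Ifit3b and Usp18 overlap between the groups.

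Compared per length, as RPKM (CPM per kb of exon), the 9 genes stood in a different order in each group. The length is that of all annotated exons of a gene combined, which for some genes exceeds the longest transcript. It was 6692 against 3620 bases for Uba7 and 9292 against 4767 for Herc6, so ranks and ratios between genes may depend on this choice. With vehicle, Isg15 came first with a mean of 1335 RPKM, followed by Ifit3 (904), Ifit2 (523), Ifit1 (291), Ifit3b (257), Ube2l6 (215), Usp18 (166), Uba7 (53.3) and Herc6 (16.2). Neighbours in that order did not overlap between libraries except Ifit1 and Ifit3b. With β-SITO, Ube2l6 came first with 16.0 RPKM, followed by Isg15 (10.7), Ifit3 (9.90), Ifit2 (7.52), Uba7 (3.60), Ifit3b (2.42), Ifit1 (2.40), Usp18 (1.40) and Herc6 (0.436). There Isg15 and Ifit3, Ifit3b and Ifit1, and Ifit1 and Usp18 overlapped. The RPKM of Isg15 was 6.19 ± 0.285 times that of Ube2l6 with vehicle and 0.673 ± 0.134 times with β-SITO. Against its protease Usp18, Isg15 stood at 8.05 ± 0.486 and 8.12 ± 2.76 times, and the groups overlapped.

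Apart from the modifier Ubd (FAT10), given at the end of this paragraph, the other ubiquitin-like systems did not show a fall of this size. Of 41 tested genes for ubiquitin, NEDD8, SUMO, UFM1, the ATG8 and ATG12 modifiers and relatives of the ISG15 enzymes, 1 was called lower and 0 higher, against 10.1 and 12.8% of all tested genes. The log2 fold changes of these 41 genes ran from -1.12 to 0.70 (median -0.27). The gene called lower was Ube2f, an E2 enzyme for NEDD8 (log2 fold change -1.12, adjusted p = 1.24e-09). Uba1, the main E1 enzyme for ubiquitin, had a log2 fold change of -0.82 (SE 0.0607) and Ube2l3, the closest relative of Ube2l6, had -0.29 (SE 0.0553), both short of 2-fold. The RPKM of Uba7 was 0.319 ± 0.0188 times that of Uba1 with vehicle and 0.0380 ± 0.000443 times with β-SITO. For Ube2l6 against Ube2l3 the ratio was 7.62 ± 0.312 and 0.691 ± 0.0295. Herc6 stood at 6.50 ± 0.880 times the RPKM of its relative Herc3 with vehicle and 0.223 ± 0.106 times with β-SITO. A further interferon-responsive modifier, Ubd (FAT10), had 70, 70 and 84 counts in V1, V2 and V3 and 0 in each β-SITO library, at least 27.7-fold lower when set against a floor of 3 counts per library.

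**Figure D5:**
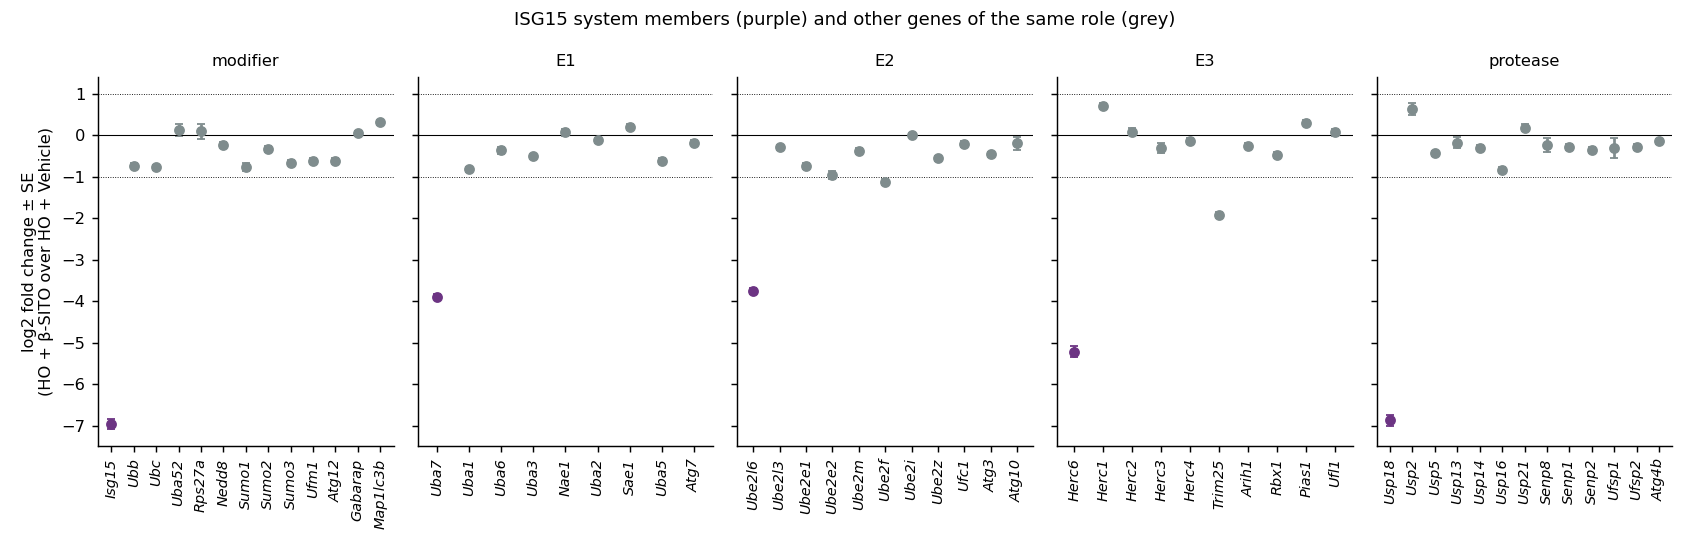
The log2 fold change (HO + β-SITO over HO + Vehicle) with its SE is plotted for Isg15, Uba7, Ube2l6, Herc6 and Usp18 (purple) beside the other listed genes with the same role in a ubiquitin-like system (grey), in 5 panels, with dotted lines at 2-fold. Of the grey genes 1 of 10 E2 enzymes (Ube2f) and 1 of 9 E3 ligases (Trim25) were called lower, against 0 of 12 modifiers, 0 of 8 E1 enzymes and 0 of 12 proteases. Of all tested genes 10.1% were called lower. The modifier Ubd, called lower with 0 counts in every β-SITO library, is not drawn, since its fitted fold change depends on the prior count.

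Of 12 other genes tied to ISG15, 2 were called lower and 0 higher, against 10.1 and 12.8% of all tested genes. The median log2 fold change of the 12 was -0.36. They encode further E2 enzymes and ligases, proteases with some ISG15 activity and the receptor for free ISG15. Trim25, an interferon-induced ligase that can attach ISG15, went from 302 ± 16.5 to 79.8 ± 4.32 CPM (log2 fold change -1.92, adjusted p = 6.37e-13). Itgal, the alpha chain of the integrin LFA-1 that free ISG15 can bind, went from 48.1 ± 1.84 to 10.9 ± 0.233 CPM (log2 fold change -2.14, adjusted p = 1.4e-12). Its partner chain Itgb2 had a log2 fold change of 0.63 and Arih1, a ligase, had -0.25, and neither was called. Among the partners of IFIT proteins, 0 of 13 subunits of the translation factor eIF3 were called, with a median of -0.04, which turned to 0.10 with upper quartile normalization and 0.11 with library size only. Of 5 enzymes that build the RNA cap, 1 was called lower, against 10.1% of all tested genes. It was Cmtr1, which methylates the cap (log2 fold change -1.03, adjusted p = 0.00233). Its change of 2.05-fold is close to the cutoff and rests on 30, 36 and 30 counts in V1 to V3 and 15, 18 and 22 in T4 to T6. Cmtr2, at -0.97, was not called.

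RNA of some genes of the signalling pathway known to induce the 9 genes was lower. Only RNA was measured, not the activity of the pathway, and whether the pathway had a part in the fall was not tested. Of 10 tested genes of type I interferon signalling, 6 were called lower and 0 higher, against 10.1 and 12.8% of all tested genes. The median log2 fold change of the 10 was -1.68. Stat2 and Irf9, which belong to the interferon-activated complex, had log2 fold changes of -3.43 (SE 0.0755) and -1.67 (SE 0.072). Irf7, a factor that amplifies interferon production, had -6.85 (SE 0.1), and Irf1, a related factor, had -3.51 (SE 0.065). At the receptor, Ifnar2 was called lower with -1.69, whereas Ifnar1 (-0.79), Jak1 (-0.78), Tyk2 (-0.84) and Irf3 (0.37) did not reach 2-fold. Ifnb1, the gene for interferon beta, had 1 count in all, in V2, too few to compare. Of 25 other interferon-stimulated genes listed, 25 were called lower, against 10.1% of all tested genes. The log2 fold changes of the 25 ran from -9.25 for Mx1, an antiviral GTPase, to -1.77 for Ifi27l2a (median -4.87). Stat2, Irf1, Irf7, Dhx58 and Zbp1 of these lists are, like Isg15, in the study's heat map of these libraries, and their direction is not independent evidence either.

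The tested genes whose pattern over the 6 libraries lay closest to the mean pattern of the 9 were Cd274, Hp, Apol9b, Il1rn and Oas1g, in this order. Their Euclidean distances to the mean centred log2 CPM profile of the 9 were 0.166 to 0.364. The 9 genes themselves had log2 fold changes from -6.96 to -3.75, so a gene close to their mean need not be close to each of them. The log2 fold changes of these 5 genes ran from -6.30 for Apol9b to -5.74 for Oas1g. Cd274 encodes the checkpoint ligand PD-L1, Hp haptoglobin and Il1rn the antagonist of the receptor for the interleukin IL1.

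Over the set as a whole, 14 tested genes lay closest to the 9 on either side (median log2 fold change -0.84). Of them 6 were called lower, against 10.1% of all tested genes, 1 was called higher, against 12.8%, and 7 were not called. Apart from Ifit1bl1, Ifit1bl2, Agrn and AW011738, the genes called lower were Serping1, an inhibitor of complement next to Ube2l6 (-2.08, adjusted p = 5.89e-14), and Slc6a12, a transporter next to Usp18 (-2.57, adjusted p = 0.000278). Inka1, which ends 163 bases to the right of Uba7 on the other strand, rose, with a log2 fold change of 1.47 (adjusted p = 1.52e-05).

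Markers of other cell types moved between the groups as well. All 9 endothelial markers were called higher, against 12.8% of all tested genes (10.1% were called lower). Their summed CPM was 212.6 to 242.7 with vehicle and 855 to 884 with β-SITO. Of 12 macrophage markers 8 were called higher and 2 lower, with summed CPM of 1359 to 1490 and 2843 to 3490. The macrophage markers called lower were Cd14 (log2 fold change -1.56) and Fcgr1 (-2.18), of which Fcgr1 is itself interferon-induced. Of 6 smooth muscle markers 4 were called higher, with summed CPM of 587.5 to 634.1 and 1168 to 1371. Of 12 cardiomyocyte markers 3 were called higher and 0 lower, and of 9 fibroblast markers 1 was called higher and 0 lower. Of 5 markers of plasmacytoid dendritic cells, the blood cells that make most interferon, 3 were tested and 1 called lower, Bst2 (-3.70), which is itself interferon-induced. The summed CPM of these 5 markers was 1006 to 1239 with vehicle and 292.9 to 303.5 with β-SITO, and its fall is that of Bst2 (means 927 and 71.2 CPM). Tcf4 went from 125 to 193 CPM (log2 fold change 0.63) and Irf8 from 53.7 to 35.2 CPM (-0.61), and neither was called. The defining marker Siglech had 0 counts in every library. None of the 7 lymphocyte markers and none of the 5 erythroid markers passed the filter, with summed CPM of at most 0.781 and 0.112 in any library, and of these lists Cd3e, Cd3d, Hbb-bs, Hbb-bt and Hba-a2 had 0 counts in every library. Of 5 neutrophil markers only Csf3r was tested and was called lower (-2.08), with summed CPM of 14.7 to 16.0 and 3.32 to 5.55, and Ly6g and Retnlg had 0 counts. The part of cell composition in the fall of the 9 genes was not tested. In T4 the cardiomyocyte markers summed to 5297 CPM against 8908 and 8982 in T5 and T6, and T4 was also the highest β-SITO library in 7 of the 9 genes, and the part of this difference was not tested either.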

How the data were processed

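RNA-seq was performed on 6 libraries of hypoxic NMCMs, 3 per group. The authors deposited raw counts per gene, without normalization. The submitters' processing notes name FastQC, HISAT2, featureCounts and GRCm39, with no versions, and the study used DESeq2. The study's methods and the sample records name different library kits. Strand and multi-mapping settings are not given in the sources used here. Groups were taken from the sample titles.

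From the counts, filterByExpr, TMM normalization and the quasi-likelihood test of edgeR 4.0.16 (R 4.3.3) were applied to all genes, with Benjamini-Hochberg adjustment over 14799 genes and the group as the only term. SE is the log2 fold change divided by the square root of F. CPM used TMM library sizes, and RPKM used exon lengths of GENCODE vM21, matched by gene ID for 189 of 189 listed genes. Shares and ratios were compared with exact permutation tests. No 2 libraries of a group agreed within sampling noise (chi-square per gene of at least 1.96). The test was checked on simulated data. Alternatives were DESeq2 1.42.0, limma-voom (limma 3.58.1), glmTreat, no fold-change cutoff, other normalizations and filters, removal of mitochondrial genes or of each library, a summed Ifit3 and Ifit3b, and other motif settings.

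The genes and lists were chosen with earlier results of these data known. The text names the 9 genes, listed genes, the closest tested neighbours, and 5 further genes. These 5 had at least 100 counts on average and the profiles nearest to the mean profile of the 9. A comparison of protein sequences was not made here, and some listed genes are not reported by name.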

Additional observations from a re-analysis of the deposited data

How the results depend on the processing

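The count of 9 genes called lower was the same under DESeq2, limma-voom, glmTreat against 2-fold, no fold-change cutoff, each other normalization and filter, removal of mitochondrial genes and removal of each library in turn, and it was 8 of 8 with Ifit3 and Ifit3b summed. The log2 fold change of Isg15 ranged from -7.10 to -6.81 over these alternatives and that of Ube2l6 from -3.78 to -3.60, and the largest adjusted p of any of the 9 genes was 1.59e-10 (Herc6). Without each replicate in turn, all genes called numbered 3467 to 3610, against 3380 with all libraries. With no fold-change cutoff 9892 genes were called, since the rule then takes smaller changes. Upper quartile normalization and library size only shifted the median log2 fold change of all genes from -0.01 to 0.14, and with it the medians of most lists by about that amount, and the calls became 1288 lower with 2257 higher and 1285 lower with 2270 higher, against 1492 with 1888. The ISRE core was found in 4 of 8 genes with 1 to 3 free bases in the middle, against 8.59% of all genes in the promoter table. Within the last 150 bases it was found in 3 of 8, against 1.85%. No paired analysis was possible because the groups share no replicate number. Counts of 48 to 643 limit the precision of the β-SITO values.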
